A study of Mus musculus with 10 samples.

Results

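The MYC family and its partners were followed in nascent RNA through 6 genes, Myc, Mycn, Mycl, Max, Mxd4 and Mga, while the transcription factor SOX2 was removed from mouse embryonic stem cells. The genes were chosen by symbol. All 6 were found, each as 1 transcribed unit (TU), a stretch of continuous nascent transcription on 1 strand, among 16137 TUs with a gene symbol and 40779 TUs in all. Each of the 6 passed the count filter and was tested together with 28459 TUs. RNA came from E14 mouse embryonic stem cells of the genotype SOX2-FKBP, in which every group, the controls included, carried the FKBP degron on SOX2. Controls received DMSO (not treated, NT), and the other groups received 500 nM dTAG-13 and were taken 0.5, 1, 2 or 6 hours (h) later, named by hours post depletion (hpd). Each of the 5 groups held 2 libraries. New RNA was labelled with 2 mM 4-thiouridine for 10 min and captured (TT_chem_seq). The medium held no serum but LIF, the MEK inhibitor PD0325901 and the GSK3-β inhibitor CHIR99021. Per the study's methods the line grew from a picked homozygous colony, and untagged cells given dTAG-13 were not analysed here. The degron acts on SOX2 protein, which was not measured here.

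MYC, MYCN and MYCL are related basic helix-loop-helix zipper proteins that bind DNA as pairs with MAX and activate genes of ribosome production, nucleotide synthesis and metabolism. MXD4 and MGA compete for the same partner. MXD4 recruits a repressor to MAX sites, and MGA joins MAX to a Polycomb complex (PRC1.6) that holds germline genes silent in stem cells. Mycn and Myc are both known to be expressed in mouse embryonic stem cells, where MYC proteins drive growth and proliferation.

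The promoters of Mycn, Mycl and Max are shown because transcription of the first pair fell and that of Max, their shared partner, was not called changed. This holds for the main edgeR fit, of all libraries and all TUs that passed the count filter. RefSeq's table of promoters on GRCm38 (mm10) held 5 of the 6 genes, all but Myc. Each line gives the 250 bases before the transcript start that this table uses, 5′ to 3′ on the gene's strand, in lower case, with capitals at matches on either strand to the E-box CACGTG that MYC and MAX bind, the SOX core ACAAT, the octamer ATGCAAAT of OCT4 and the E2F words TTTCCCGC and TTTGGCGC. The Mycn stretch is chr12:12941837-12942086 on the minus strand, the Mycl stretch chr4:122995681-122995930 on the plus strand and the Max stretch chr12:76962249-76962498 on the minus strand. For Mycl and Max this start lies inside the outermost annotated bounds of the gene, so the Mycl stretch falls within the gene and the Max stretch crosses its 5′ edge.
Mycn: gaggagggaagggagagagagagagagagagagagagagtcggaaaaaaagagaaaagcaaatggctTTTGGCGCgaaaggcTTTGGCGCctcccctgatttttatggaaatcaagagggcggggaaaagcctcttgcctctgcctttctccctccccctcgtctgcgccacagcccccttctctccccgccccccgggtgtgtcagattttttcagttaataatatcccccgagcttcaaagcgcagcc
Mycl: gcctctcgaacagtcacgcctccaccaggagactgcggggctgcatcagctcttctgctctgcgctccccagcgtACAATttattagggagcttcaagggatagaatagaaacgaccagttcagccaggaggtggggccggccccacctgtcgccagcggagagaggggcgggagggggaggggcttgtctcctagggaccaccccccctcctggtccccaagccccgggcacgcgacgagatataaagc
Max: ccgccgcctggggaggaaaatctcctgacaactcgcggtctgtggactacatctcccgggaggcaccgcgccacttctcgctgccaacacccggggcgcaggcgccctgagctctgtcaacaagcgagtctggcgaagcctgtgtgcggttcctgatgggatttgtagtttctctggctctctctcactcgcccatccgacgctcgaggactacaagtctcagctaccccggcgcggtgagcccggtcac

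The Mycn promoter held TTTGGCGC at 2 places, beginning 183 and 168 bases before the start, a word found in 0.421% of 32536 promoters of the same length. The Mycl promoter held ACAAT once, 175 bases before the start, as 27.4% of promoters did on 1 or the other strand. None of the words was found in the Max stretch. In the promoters that are not printed, that of Mxd4 held the E-box once (6.04% of promoters) and the SOX core once, and that of Mga, which lies far inside the gene and its TU and not at the start of the TU, held the SOX core once. TTTCCCGC (0.901% of promoters) and the octamer (1.62%) were in none of the 5 stretches, and no matches overlapped. The CACGTG word reads the same on both strands. A match is a description of letters only.

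Library totals ran from 11131490 to 25854106 fragments, both at 0.5 h. Values are CPM, fragment counts scaled to library size with TMM factors and no spike-in, so they are relative to the other RNA of the same library. In such bulk samples fewer cells of a kind and less RNA per cell cannot be told apart. All 8 markers of mouse embryonic stem cells were transcribed in every library, with sums of 3360 to 4320 CPM. Of 9 markers of feeders, trophoblast, primitive endoderm, mesoderm and neural cells, 6 were in the table, and their sums ran from 12.4 to 17.4 CPM in NT, 20.9 to 21.3 at 0.5 h, 14.9 to 18.7 at 1 h, 15.4 to 17.9 at 2 h and 16.0 to 19.4 at 6 h. Pax6 made up most of these sums, and Cdx2 was at 0 to 8 fragments. Nothing in the labels says that replicates came from separate cultures, so p-values measure only the spread between these libraries, which may be technical.

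All 3 MYC genes fell after SOX2 depletion, and none of Max, Mxd4 and Mga was called changed in the main edgeR fit. Calls came from edgeR's quasi-likelihood test, at a p under 0.05 after Benjamini-Hochberg adjustment over all TUs. At 0.5 h 0 of the 6 genes were called lower, against 0.787% of all TUs. At 1 h 1 of 6 was called lower (all TUs 3.61%), at 2 h 3 of 6 (5.57%) and at 6 h 3 of 6 (9.20%). None was called higher at any time, against 0.527%, 2.15%, 4.26% and 6.61% of all TUs. At 0.5 h 3 genes had an unadjusted p under 0.05, and DESeq2 called 1, Mycn. The median log2 fold change of the 6 was -0.29, -0.50, -0.53 and -0.56 at 0.5, 1, 2 and 6 h, beside -0.02, -0.04, -0.04 and -0.04 over all TUs. At 6 h it lay between the 3 MYC genes (-2.07 to -1.03) and Mga, Max and Mxd4 (-0.08 to 0.58). It is thus no shift of the whole set. The 4 comparisons share the NT libraries.

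**Figure D1:**
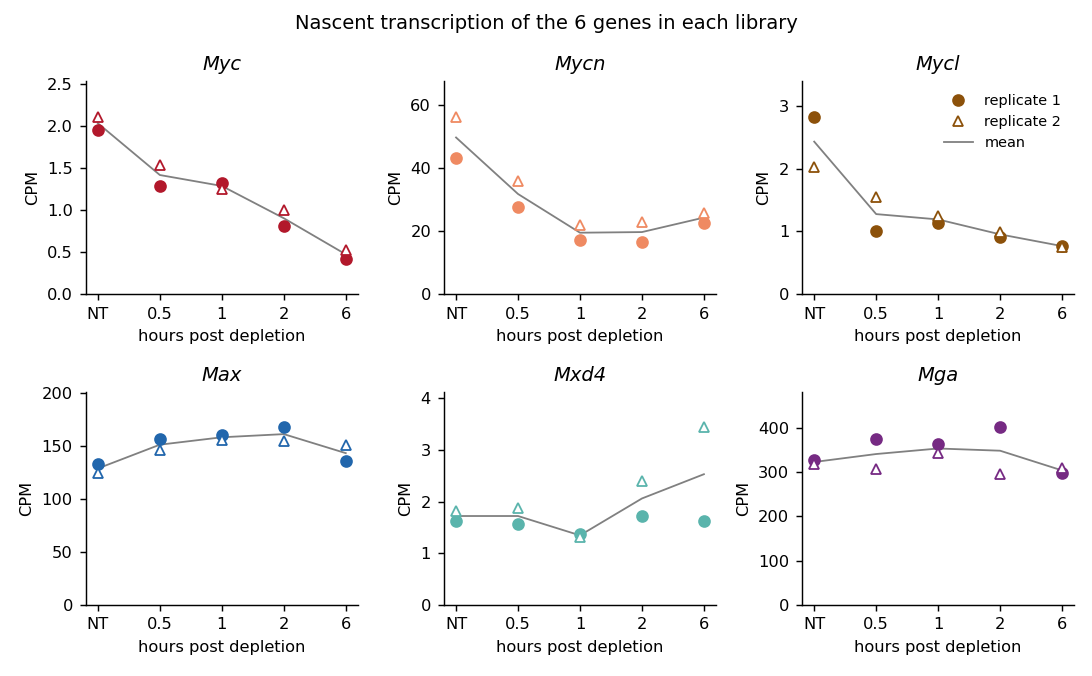
CPM (y axes, from 0) of each gene in NT and at 0.5, 1, 2 and 6 hours post depletion (x axes), with filled circles for replicate 1, open triangles for replicate 2 and a grey line through the means. Myc goes from 2.03 to 0.473 CPM on average and Mycn from 49.8 to 24.3, while both Max libraries at 6 h lie above both NT libraries.

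Mycn, which encodes the MYC protein best known from neural progenitors and neuroblastoma, was the most transcribed of the 3. Its TU lies on chromosome 12, 12931286 to 12943153, on the minus strand, begins 1317 bases before the annotated start and runs 4.81 kb past the annotated end. It had 43.1 and 56.4 CPM in the NT libraries and 27.6 and 36.0 at 0.5 h. It had 17.1 and 21.9 CPM at 1 h, 16.5 and 22.9 at 2 h and 22.7 and 25.9 at 6 h. Both libraries of every later group lay below both NT libraries, and replicate 2 was above replicate 1 in all 5 groups. The log2 fold change of -0.66 ± 0.18 (SE, n = 2 libraries per group) at 0.5 h was not called (edgeR, adjusted p = 0.098). It was -1.35 ± 0.18 at 1 h (edgeR, adjusted p = 0.00034), when 39.3% of the NT level was left. It was -1.34 ± 0.18 at 2 h (edgeR, adjusted p = 0.00022) and -1.03 ± 0.18 at 6 h (edgeR, adjusted p = 0.0012). From 1 to 6 h the mean went from 19.5 to 24.3 CPM, a log2 difference of 0.31 with a 95% interval of -0.09 to 0.71 (edgeR, adjusted p = 0.39). The calls at 1, 2 and 6 h held in every other fit. The value at 0.5 h was called by DESeq2 (edgeR's value -0.66, DESeq2 -0.65, adjusted p of 0.05 as rounded), with only the libraries compared (-0.64, adjusted p = 0.025) and without either 2 hpd library (-0.66, adjusted p of 0.04 and 0.041).

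Myc, the founding member of the family, was read at a low level and went down to the last time point. Its TU lies on chromosome 15, 61985564 to 61991849, on the plus strand, and covers the gene but for its first 223 bases. It held 29 and 29 fragments in NT (1.95 and 2.11 CPM), 33 and 18 at 0.5 h (1.29 and 1.54 CPM) and 21 and 22 at 1 h (1.32 and 1.25 CPM). It held 16 and 17 fragments at 2 h (0.809 and 0.994 CPM) and 6 and 9 at 6 h (0.421 and 0.524 CPM). Both libraries of each later group lay below both NT libraries. The log2 fold change was -0.55 ± 0.29 at 0.5 h and -0.66 ± 0.30 at 1 h, neither called (edgeR, adjusted p of 0.62 and 0.26). It was -1.17 ± 0.31 at 2 h (edgeR, adjusted p = 0.026) and -2.07 ± 0.36 at 6 h (edgeR, adjusted p = 0.0011), when 23.8% of the NT level was left. Between 1 and 6 h Myc went from 1.28 ± 0.046 to 0.473 ± 0.073 CPM (SD, n = 2), a log2 difference of -1.42 ± 0.38 (edgeR, adjusted p = 0.042). This was the only call among the 6 genes between time points, where 2.92% of all TUs were called lower, and it was lost with total counts, with no count filter, with DESeq2 and without either library of 0.5, 1 or 6 h (range -1.59 to -1.29). At 2 h the call did not survive leaving out NT replicate 1 (-1.23), NT replicate 2 (-1.12) or 2 hpd replicate 1 (-1.02), nor DESeq2 (-1.14) or a fit of only the libraries compared (-1.15), whereas the call at 6 h held in every fit that tested Myc.

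Mycl, which encodes a member first found amplified in lung cancer, was also low. Its TU lies on chromosome 4, 122996227 to 123004003, on the plus strand. It held 42 and 28 fragments in NT (2.83 and 2.03 CPM), 26 and 18 at 0.5 h (1.01 and 1.54 CPM) and 18 and 22 at 1 h (1.13 and 1.25 CPM). It held 18 and 17 fragments at 2 h (0.910 and 0.994 CPM) and 11 and 13 at 6 h (0.773 and 0.757 CPM). Every later library lay below both NT libraries. The log2 fold change was -1.0 ± 0.31 at 0.5 h and -1.03 ± 0.32 at 1 h, neither called (edgeR, adjusted p of 0.18 and 0.076). It was -1.35 ± 0.32 at 2 h (edgeR, adjusted p = 0.014) and -1.66 ± 0.34 at 6 h (edgeR, adjusted p = 0.004), with 31.6% of the NT level left. The call at 2 h was lost without NT replicate 1 (-1.10) or 2 hpd replicate 1 (-1.29) and with DESeq2 (-1.33), and that at 6 h held in every fit that tested Mycl.

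Max, the partner that all of these proteins share, showed no called change in the main edgeR fit. Its TU on chromosome 12, 76916010 to 76962293, minus strand, runs 21.3 kb past the annotated end and lies across Fntb on the other strand. It had 133 and 125 CPM in NT, 157 and 146 at 0.5 h, 161 and 156 at 1 h, 168 and 155 at 2 h, and 136 and 151 at 6 h. Both libraries of each later group lay above both NT libraries. The log2 fold changes were 0.23 ± 0.10, 0.29 ± 0.10, 0.32 ± 0.10 and 0.15 ± 0.10 (edgeR, adjusted p of 0.47, 0.13, 0.061 and 0.34). The 95% interval at 2 h was 0.10 to 0.54. Whether Max and the MYC genes differed in their response was not tested. DESeq2 called Max higher at 2 h (0.35, adjusted p = 0.039), as did the fit that kept only TUs averaging 50 or more fragments (0.29, adjusted p = 0.039) and those without 0.5 hpd replicate 2 (0.32) or 2 hpd replicate 2 (0.36). With only the libraries compared Max was called at 1 h (0.31, adjusted p = 0.012).

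Mxd4, which encodes a MAX-binding repressor linked to exit from the cell cycle, held few fragments. Its TU lies on chromosome 5, 34169537 to 34187093, on the minus strand. It had 1.62 and 1.82 CPM in NT, 1.56 and 1.88 at 0.5 h, 1.38 and 1.31 at 1 h, 1.72 and 2.40 at 2 h, and 1.62 and 3.44 at 6 h. The groups at 0.5, 2 and 6 h overlapped with NT, and the 6 hpd libraries held 23 and 59 fragments. The log2 fold changes were -0.02 ± 0.36, -0.35 ± 0.38, 0.25 ± 0.35 and 0.58 ± 0.35 (edgeR, adjusted p of 0.99, 0.68, 0.71 and 0.28). The value at 6 h was -0.08 without 6 hpd replicate 2, and that at 0.5 h turned to 0.00023 with only the libraries compared, so no direction can be given.

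Mga, the MAX partner of the PRC1.6 complex, was the longest and most counted of the 6. Its TU on chromosome 2, 119872506 to 120011351, plus strand, runs 41.2 kb past the annotated end and takes in the first part of Mapkbp1 and a pseudogene, Gm13998, on the same strand, so its fragments cannot be split among them. It had 327 and 318 CPM in NT, 374 and 307 at 0.5 h, 364 and 342 at 1 h, 401 and 295 at 2 h, and 298 and 309 at 6 h. NT and the groups at 0.5 and 2 h overlapped. The log2 fold changes were 0.08, 0.13, 0.11 and -0.08, each ± 0.14 (edgeR, adjusted p of 0.94, 0.67, 0.67 and 0.72). Every 95% interval lay between -0.38 and 0.42, and the value at 2 h turned to -0.01 when total counts set the scale and to -0.13 without 2 hpd replicate 1. At 0.5 h it turned to -0.07 without 0.5 hpd replicate 1. Over the 4 times together Mycn (adjusted p = 3e-04), Myc (0.0084) and Mycl (0.019) were called in edgeR's joint test, as were 12.3% of all TUs, and Max (0.19), Mxd4 (0.36) and Mga (0.71) were not. The joint call of Myc was lost without 6 hpd replicate 1 (0.056) and with DESeq2 (0.051). That of Mycl was lost without NT replicate 1 (0.18), 6 hpd replicate 1 (0.056) or 6 hpd replicate 2 (0.058) and with DESeq2 (0.10).

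**Figure D2:**
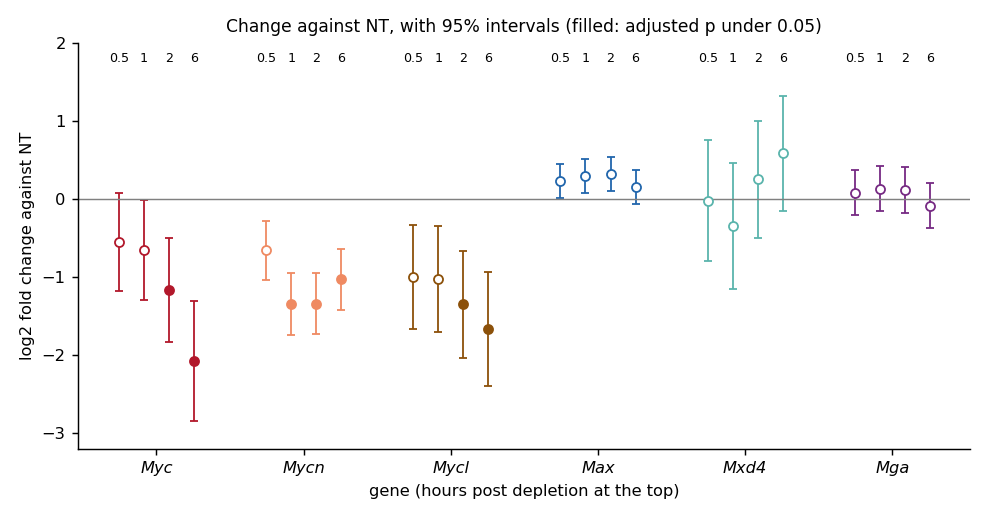
Log2 fold change against NT (y axis) of each gene (x axis) at the hours post depletion printed at the top, with 95% intervals from edgeR, filled where the adjusted p was under 0.05. The 7 filled points are Myc at 2 and 6 h, Mycn at 1, 2 and 6 h and Mycl at 2 and 6 h, and all lie below 0.

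Levels of different genes were compared per kb of TU. In NT the order was Mycn (4.19 ± 0.79 CPM per kb, SD, n = 2), Max (2.79 ± 0.13), Mga (2.32 ± 0.046), Myc (0.323 ± 0.017), Mycl (0.313 ± 0.072) and Mxd4 (0.0977 ± 0.0081). Of the neighbours in this order, the libraries of Myc and Mycl overlapped and the others did not. At 1 h Max (3.42 ± 0.071) and Mga (2.54 ± 0.12) stood above Mycn (1.65 ± 0.29), with no overlap. At 6 h Mga (2.19 ± 0.056) and Mycn (2.05 ± 0.19) overlapped, as did Mxd4 (0.144 ± 0.073) and Mycl (0.0983 ± 0.0014), and Myc (0.0752 ± 0.012) was lowest. Averaged over all libraries, the level per kb put Max at the 88.7th percentile of tested TUs with a symbol, Mycn at the 83.1st, Mga at the 82.6th, Myc at the 21.7th, Mycl at the 19.2nd and Mxd4 at the 11.5th. TU lengths include transcription past the annotated ends, which may lower the level per kb of genes with a long stretch of it. Levels inside the gene and past its end were not measured apart.

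**Figure D3:**
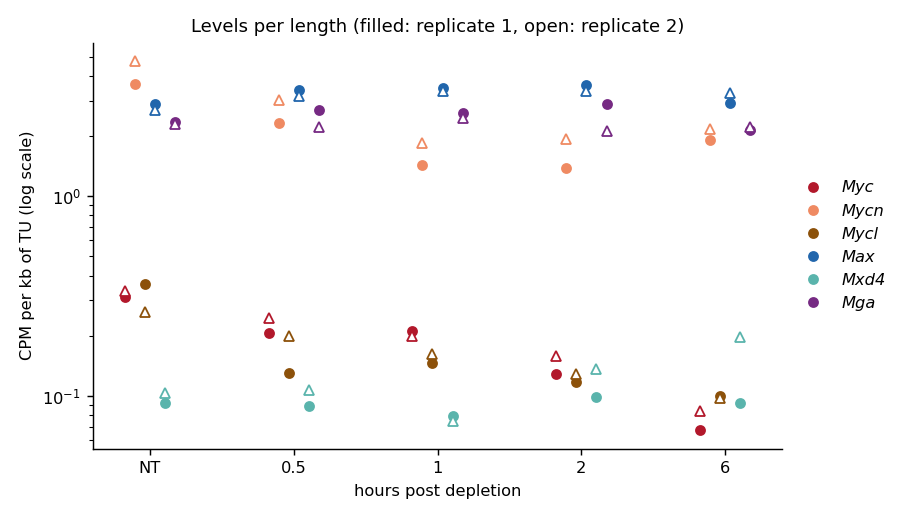
CPM per kb of TU on a log axis for each gene and library over time (x axis), with filled circles for replicate 1 and open triangles for replicate 2. Mycn lies above Max in both NT libraries and below it in all 8 later libraries, and the other 3 low genes stay under 0.4.

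Mycn gave most of the transcription of the 3 MYC genes in every library. Its share of their summed CPM per kb ran from 80.3% to 92.3%, with 84.4% and 88.8% in NT, 80.3% and 83.7% at 1 h and 92.0% and 92.3% at 6 h. Myc gave 7.21% and 6.27% in NT, 11.7% and 9.03% at 1 h and 3.23% and 3.53% at 6 h. The sum itself was 4.31 and 5.35 CPM per kb in NT, 1.80 and 2.21 at 1 h, 1.64 and 2.21 at 2 h, and 2.08 and 2.36 at 6 h, so the higher share of Mycn at 6 h stood beside a sum below both NT libraries. The ratio of Mycn to Max per kb was 1.26 and 1.76 in NT, 0.685 and 0.959 at 0.5 h, 0.415 and 0.548 at 1 h, 0.385 and 0.574 at 2 h and 0.651 and 0.666 at 6 h. These shares and ratios are descriptions, given without a test.

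The TUs around the 6 genes were read next. Of 56 other TUs that overlapped them or lay within 100 kb, 41 were tested and 10 were called against NT at 1 or more of the 4 times, as were 18.8% of all TUs. The opposite strand of the Mycn promoter region carries a TU without a symbol (chromosome 12, 12937310 to 12944562, plus strand) that the deposited annotation marks as antisense at a start site. It held 25 and 28 fragments in NT, 16 and 12 at 0.5 h, 9 and 6 at 1 h, 12 and 19 at 2 h and 18 and 17 at 6 h. Its lowest libraries were those of 1 h, where the log2 fold change was -2.03 ± 0.44 (edgeR, adjusted p = 0.011). At 0.5, 2 and 6 h the values were -1.26, -1.13 and -0.73, none called, and the call at 1 h (range -2.42 to -1.70 over single libraries left out) was lost without NT replicate 2 or 1 hpd replicate 2. On the Mycn strand, 27.8 kb past its end, an extragenic TU (12878970 to 12903444) fell by 0.70 ± 0.17 on the log2 scale at 6 h (edgeR, adjusted p = 0.013), a call lost without NT replicate 2, 6 hpd replicate 1 or 6 hpd replicate 2. This TU was named after its values were seen.

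Pvt1, a long non-coding RNA gene, follows Myc at a distance of 40.8 kb. It was not called against NT at any single time, with log2 fold changes of 0.20, 0.36, 0.37 and -0.17 (each ± 0.13, edgeR, adjusted p of 0.72, 0.13, 0.083 and 0.38). Over the 4 times together Pvt1 was called in edgeR's joint test (adjusted p = 0.026), as were 12.3% of all TUs. It is named here for its place beside Myc. It had 112 and 124 CPM in NT, 152 and 150 at 1 h and 91.6 and 117 at 6 h, and fell between 1 and 6 h by 0.54 ± 0.13 on the log2 scale (edgeR, adjusted p = 0.023). The call was lost without 1 hpd replicate 1, 1 hpd replicate 2 or 6 hpd replicate 1 (range -0.72 to -0.38 over single libraries left out). Whether Myc and Pvt1 differed in their changes was not tested.

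Near Mga, Tyro3, which encodes a receptor tyrosine kinase, fell at all 4 times, with log2 fold changes of -0.60, -0.58, -0.84 and -0.73 (each ± 0.12, edgeR, adjusted p of 0.021, 0.0085, 0.00035 and 0.00084). Rpap1, which encodes a protein bound to RNA polymerase II, fell at 1, 2 and 6 h (-0.45, -0.50 and -0.55, edgeR, adjusted p of 0.014, 0.0055 and 0.002). The calls of both at 1 h, and of Tyro3 at 0.5 h, were lost without either NT library or either library of that time, and that of Rpap1 at 2 h without 2 hpd replicate 1. Of the 4 TUs opposite Mga, 1 (chromosome 2, 119989538 to 119990000, minus strand) was called lower at 6 h, where 9.20% of all TUs were, with 11 and 19 fragments in NT, 13 and 4 at 0.5 h, 6 and 10 at 1 h, 11 and 14 at 2 h and 4 and 5 at 6 h. Its log2 fold changes of -1.22, -1.13 and -0.62 at the earlier times were not called, and that at 6 h was -1.85 ± 0.53 (edgeR, adjusted p = 0.027), a call lost with DESeq2 and without NT replicate 2 or either 6 hpd library. The TUs opposite Max and Mxd4 were not called. At 93.7 kb from the Max TU, Rab15, a small GTPase gene, rose from 5.21 to 11.3 CPM at 6 h (1.12 ± 0.17, edgeR, adjusted p = 0.00038), also without any single library.

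**Figure D4:**
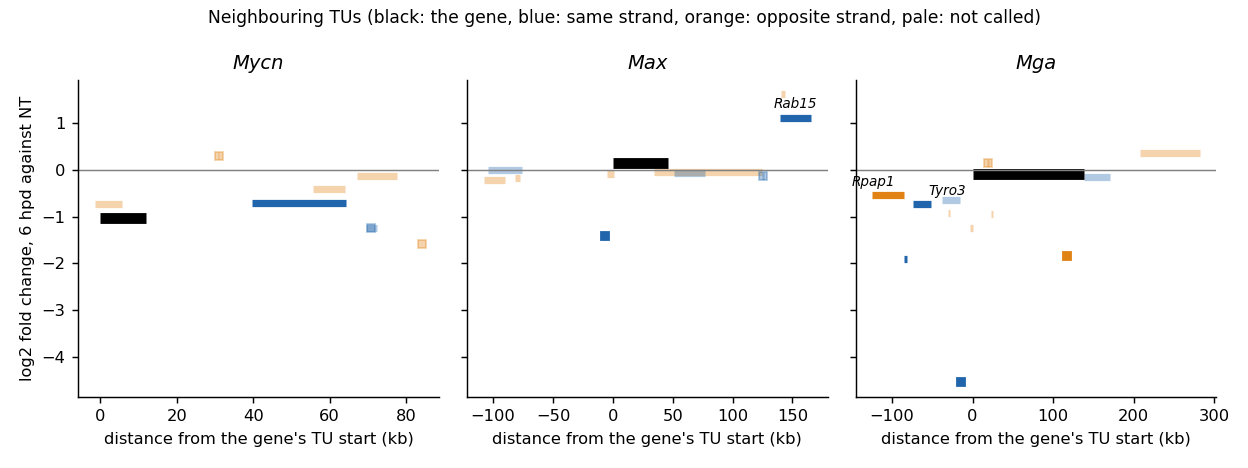
Log2 fold change at 6 h against NT (y axis) of tested TUs within 100 kb of Mycn, Max and Mga, drawn at their distance in kb from the start of the gene's TU in the direction of its transcription (x axis). Black marks the gene, blue the same strand, orange the opposite strand, and pale colours TUs not called. Mycn lies at -1.03, with its antisense TU at -0.73 (pale), and Rab15 at 1.12.

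For each of the 6 genes, the pair of symbol TUs averaging 50 or more fragments whose log2 CPM followed it most closely was taken, by Pearson's r over the 10 libraries, among 11937 or 11938 candidates. These values describe libraries that share their time course and their depth. Scn3a, a sodium channel gene (r = 0.985), and Pramel6, a gene of the PRAME-like family (r = 0.982), followed Myc. Both went down to 6 h, where Scn3a had a log2 fold change of -1.99 ± 0.18 and Pramel6 of -1.32 ± 0.11. The genes of these pairs were chosen for following a gene in the same libraries, so their course was set by the choice. Bcor, which encodes a corepressor of BCL6 (r = 0.989), and Skida1 (r = 0.986) followed Mycn. They were lowest at 1 and 2 h, with 23.9 and 23.8 CPM for Bcor after 37.6 in NT and 15.1 and 13.5 CPM for Skida1 after 28.5, and stood at 26.8 and 16.9 CPM at 6 h. Mycl was followed by Atp5b (0.966) and 0610043K17Rik (0.965), Max by Gatad2a (0.969) and Ippk (0.965), Mxd4 by Tmem241 (0.877) and Gm39519 (0.868), and Mga by Ikbkap (0.971) and Prmt3 (0.960). Pearson's r does not weigh the size of a change. At 6 h Atp5b had a log2 fold change of -0.17 ± 0.095, not called, and 0610043K17Rik of -0.64 ± 0.13, beside -1.66 ± 0.34 for Mycl. Among the 6 genes themselves r was 0.871 for Myc and Mycl, 0.761 for Mycn and Mycl, 0.607 for Myc and Mycn, and -0.844 for Mycn and Max.

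Of 7 genes for further MAX and MLX partners, 2 were called higher at 6 h, where 6.61% of all TUs were, and none lower (all TUs 9.20%). Mlxipl, which encodes the glucose-responsive factor ChREBP, rose from 24.3 CPM in NT to 35.6, 38.8 and 46.6 at 1, 2 and 6 h (0.55, 0.67 and 0.94 on the log2 scale, edgeR, adjusted p of 0.016, 0.0027 and 0.00012). Mlxip, its relative MondoA, rose by 0.47 ± 0.13 at 6 h (edgeR, adjusted p = 0.021). The calls of Mlxipl at 2 and 6 h held in every fit, that at 1 h was lost without either NT or either 1 hpd library, and that of Mlxip without NT replicate 2 or either 6 hpd library. The median of the 7 at 6 h was 0.06, beside -0.04 over all TUs.

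Of 13 genes for subunits of the PRC1.6 complex, 12 were tested, with 1 called lower at 0.5 h, 2 at 1 and 2 h and 3 at 6 h, and 1 called higher at 2 and 6 h. Of all TUs 0.787%, 3.61%, 5.57% and 9.20% were called lower at the 4 times, and 4.26% and 6.61% higher at 2 and 6 h. Wdr5, whose protein binds histone H3 and is also a MYC partner, fell at every time, from 302 CPM in NT to 201, 170, 141 and 133 (-0.59, -0.83, -1.10 and -1.18, each ± 0.11, edgeR, adjusted p of 0.014, 0.00031, 1.5e-05 and 5e-06). Its call at 0.5 h was lost without NT replicate 2 (range -0.67 to -0.51 over single libraries left out) or 0.5 hpd replicate 1, and the later calls held in every fit. The histone deacetylase gene Hdac2 fell by 0.57 ± 0.11 at 6 h (edgeR, adjusted p = 0.0021), in every fit. Hdac1 fell by 0.31 ± 0.095 (edgeR, adjusted p = 0.037), a call lost with DESeq2 and without either NT, 1 hpd or 6 hpd library. Yaf2, a RYBP relative, rose from 10.2 to 21.0 CPM at 6 h (1.04 ± 0.14, edgeR, adjusted p = 0.00014), in every fit. Of 16 germline genes known to be silenced by MGA and MAX, 15 were tested, and Stra8 and Meioc, both genes of entry into meiosis, were called higher at 6 h (all TUs 6.61%) and none lower (9.20%). Stra8 rose by 1.19 ± 0.19 (edgeR, adjusted p = 0.00059), in every fit, after a call at 2 h (0.74 ± 0.19, edgeR, adjusted p = 0.023) that was lost without either NT library or 2 hpd replicate 1, and Meioc by 0.65 ± 0.19 (edgeR, adjusted p = 0.033), lost without NT replicate 2 or either 6 hpd library. The median of the 15 was 0.16, 0.17, 0.27 and 0.06 at the 4 times, with 12, 13, 14 and 8 of 15 above 0.

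Of 10 genes for MYC cofactors, Ruvbl2 and Actl6a, which encode parts of chromatin remodelling complexes, were called lower at 6 h, where 9.20% of all TUs were (-0.35 ± 0.10 and -0.32 ± 0.10, edgeR, adjusted p of 0.031 and 0.045). Both calls were lost with DESeq2, with RLE factors and without either NT, 1 hpd or 6 hpd library. Of 11 genes for turnover of MYC protein, 3 were called at 1 or more times, beside 18.8% of all TUs. Fbxw7, which encodes the ubiquitin ligase subunit that recognises phosphorylated MYC, rose at 2 h (0.59 ± 0.14, edgeR, adjusted p = 0.014) and Gsk3b, the kinase that makes its mark, rose at 2 h (0.41 ± 0.12) and 6 h (0.37 ± 0.12, edgeR, adjusted p of 0.038 and 0.041). Usp28, a deubiquitinase that acts against FBXW7, fell at 2 h (-0.44 ± 0.12, edgeR, adjusted p = 0.026). No call of these 3 genes held without every library, and Fbxw7 lost its call without NT replicate 2 (range 0.37 to 0.76) or 2 hpd replicate 1. The call of Usp28 was lost without either NT library or 2 hpd replicate 2. Both calls of Gsk3b were lost without either NT or either 1 hpd library, among others. With single libraries left out, Gsk3b ran from 0.265 to 0.521 at 2 h and from 0.338 to 0.423 at 6 h.

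Of 42 textbook genes activated by MYC 41 were tested, with 0, 1, 2 and 14 called lower and 0, 1, 1 and 0 called higher at 0.5, 1, 2 and 6 h. The shares called lower were 2.44%, 4.88% and 34.1% of the 41 at 1, 2 and 6 h, beside 3.61%, 5.57% and 9.20% of all TUs (0.787% at 0.5 h), and 2.15% and 4.26% of all TUs were called higher at 1 and 2 h. All of the 41 but Ccnd2 averaged 50 or more fragments. In the fit of such TUs only, 11.8% of all TUs were called lower at 6 h, beside 20 list genes. The count at 6 h was 21 with only the libraries compared (all TUs 11.7%) and 10 with RLE factors (8.59%). The median log2 fold change of the 41 was -0.01, -0.03, -0.14 and -0.27 at the 4 times, and 36 of 41 lay below 0 at 6 h. C1qbp, a mitochondrial protein gene, went from 89.3 to 61.4 CPM (-0.54 ± 0.099, edgeR, adjusted p = 0.0017), Polr1b, a subunit of RNA polymerase I, down from 56.9 (-0.47 ± 0.096, adjusted p = 0.0036) and Odc1, the first enzyme of polyamine synthesis, from 101 to 73.8 (-0.45 ± 0.10, adjusted p = 0.0059). Hk2, a hexokinase, went from 501 to 367 CPM (-0.45 ± 0.10, adjusted p = 0.0067). Tfrc, the transferrin receptor, was the gene called higher at 1 h (0.59 ± 0.12, adjusted p = 0.007) and 2 h (0.46 ± 0.12, adjusted p = 0.023, all edgeR), and is named after its values were seen. Without NT replicate 2 the count of 14 was 2, a share close to the 4.19% of all TUs called lower in that fit. It was 6 without NT replicate 1 (all TUs 8.72%), 3 without 6 hpd replicate 2 (5.15%), 4 without 6 hpd replicate 1 (4.81%), 24 with total counts (10.9%), 9 with no count filter (6.33%) and 10 with DESeq2 (6.04%), while the calls of Polr1b and C1qbp held in every fit. The 1 h call of Tfrc was lost without NT replicate 2 or either 1 hpd library, and its 2 h call without either NT library or 2 hpd replicate 1 and with only the libraries compared. Hk2 lost its call without NT replicate 2 or 6 hpd replicate 2, and Odc1 without NT replicate 2 or 6 hpd replicate 1.

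**Figure D5:**
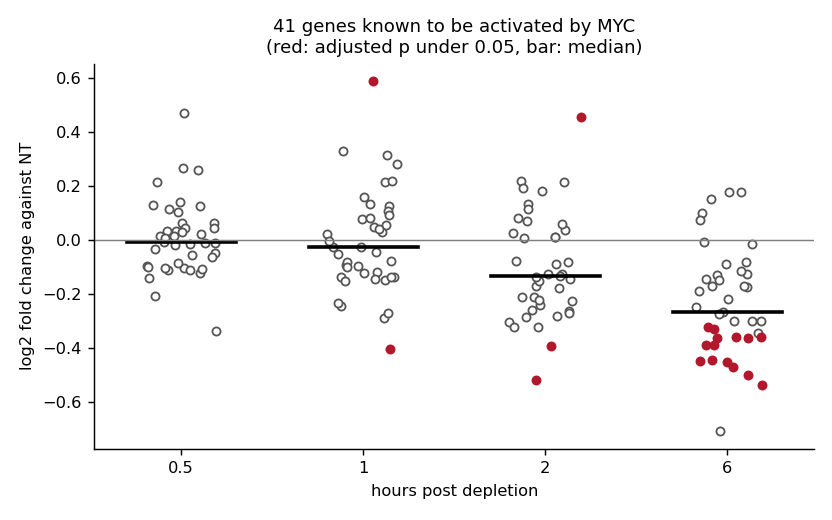
Log2 fold change against NT (y axis) of the 41 tested genes that MYC is known to activate, at 0.5, 1, 2 and 6 hours post depletion (x axis, points spread sideways for sight), in red where the edgeR adjusted p was under 0.05 and with a bar at the median. The median moves from -0.01 at 0.5 h to -0.27 at 6 h, when 14 genes are red.

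Of 5 genes that MYC represses, the cell cycle inhibitor genes Cdkn1a and Cdkn2b were called higher at some time and Ndrg1 was called lower, 3 of 5 where 18.8% of all TUs were called at 1 or more times. Cdkn1a (p21) had a log2 fold change of 0.57 ± 0.16 at 1 h and 0.59 ± 0.16 at 2 h (edgeR, adjusted p of 0.049 and 0.03), and Cdkn2b (p15) of 0.70 ± 0.23 at 6 h (edgeR, adjusted p = 0.049). These calls were lost with total counts and without either NT library, among others, and their values ran from 0.38 to 0.74, from 0.33 to 0.80 and from 0.57 to 0.89 over single libraries left out. Ndrg1, a stress-responsive gene, had 10.3 CPM in NT, and 15.8 and 12.9 at 0.5 and 1 h (0.60 ± 0.17 and 0.32 ± 0.18, not called, edgeR, adjusted p of 0.14 and 0.36). It then went against the list's name, to 3.58 CPM at 2 h and 2.09 at 6 h (-1.52 ± 0.20 and -2.30 ± 0.22, edgeR, adjusted p of 0.00014 and 4.7e-06), in every fit. Beside these values, 1, 2, 4 and 5 of 8 stem cell markers were called lower at 0.5, 1, 2 and 6 h, where 0.787%, 3.61%, 5.57% and 9.20% of all TUs were. Without NT replicate 2, 1, 1, 4 and 3 of these calls were lost. Klf4 had -1.04 ± 0.17 and Pou5f1 -0.62 ± 0.11 at 6 h (edgeR, adjusted p of 7e-04 and 0.001), both in every fit. Sox2 (0.06), Tfcp2l1 (0.01) and Zfp42 (-0.11) were not called at 6 h. Of the 4 tested markers of other cell types, Gata6, of primitive endoderm, was called higher at 2 h (1.14 ± 0.31, edgeR, adjusted p = 0.029, from 1.15 to 2.54 CPM), which was lost with DESeq2 and without either NT library or 2 hpd replicate 1. Gata4, another marker of primitive endoderm, was not called at any time (-0.45, -0.43, -0.23 and -0.28). The part of these markers in the changes of the MYC genes and their targets was not tested.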

How the data were processed

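Nascent RNA (TT_chem_seq) was read in 10 libraries, 2 for each of 5 groups taken from the sample labels. The authors deposited raw fragment counts per TU with mm10 positions. Per the study's methods and the submitters' processing notes, reads were aligned with BWA 0.7.17-r1188, filtered with SAMtools 1.10 and freed of duplicates with Picard 2.12.0, strands were split, and TUs were defined on pooled data. Deposited transcript starts lay 1 base below RefSeq for 7265 of 14891 matched symbols and at it for 185, so starts are likely to be 1 low.

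TUs were kept where 2 or more libraries held more than 10 fragments (28459 of 40779, 0.316% of fragments left out). Counts were fitted in edgeR 4.0.16 (R 4.3.3) with TMM factors, 1 coefficient per group, no covariates, and quasi-likelihood F-tests. The SE is the log2 fold change over the square root of F. CPM use TMM factors, and log2 CPM a prior count of 2. The biological coefficient of variation was 10.0%. Library totals of 11131490 to 25854106 fragments limit precision for Myc, Mycl and Mxd4, which averaged 20.0, 21.3 and 31.3 fragments per library. The procedure was tested on simulated data.

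Named genes were the 6 genes, the 2 most like each, genes of each list called at any time (at most 4, by smallest joint p), called neighbours with a symbol and symbol-free TUs opposite a member. The members and lists were chosen with earlier results of these data known. Alternatives were RLE factors, total counts, DESeq2 1.42.0, no filter, a filter on a mean of 50 fragments, a fit of only the compared libraries, a block for the replicate number, and leaving out each library. Same-numbered libraries of different groups deviated from their group means with correlations of 0.0742 to 0.291. Promoters are RefSeq's on GRCm38.p6. Python 3.11.15 was used for figures.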

Additional observations from a re-analysis of the deposited data

Results flagged for a closer look

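Myc differed between time points. Its nascent transcription was lower at 6 than at 1 h by 1.42 on the log2 scale (log2 difference -1.42 ± 0.38, edgeR, adjusted p = 0.042), with 0.421 and 0.524 CPM at 6 h after 1.32 and 1.25 CPM at 1 h. It was singled out because the effects at 2 times of the same contrast with NT differed by a test of the difference itself. The call was lost with total counts (adjusted p = 0.058), with no count filter (0.056), with DESeq2 (0.17) and without either library of 0.5, 1 or 6 h (adjusted p of 0.052 to 0.23). Groups of 2 libraries are too small for a test of outlying samples.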

How the results depend on the processing

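The calls of Mycn at 1, 2 and 6 h and of Myc and Mycl at 6 h held in every fit that tested them. The filter on a mean of 50 fragments dropped Myc, Mycl and Mxd4, and DESeq2 gave no adjusted p for Myc and Mycl between successive times or for Mxd4 from 2 to 6 h. Depth limits the same 3 genes. Of 77 calls of other named TUs that were checked, 27 held in every fit and none reversed. The calls under Other observations were not among them. Over all TUs the median log2 fold change at 2 h was -0.0396, and -0.155 with total counts. The cause of each change below was not tested.

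Replicate numbers are not known to pair libraries. With the replicate number as a block, the log2 fold changes called were -0.648 for Mycn at 0.5 h, -1.03 for Mycl at 1 h, 0.293 and 0.32 for Max at 1 and 2 h and -0.70 for Mycn from 0.5 to 1 h, Mxd4 at 0.5 h was 0.0241, 1 and 3 of the 6 genes were called at 0.5 and 1 h, while 1.84%, 5.06%, 9.53% and 11.9% of all TUs were called up and 2.09%, 6.14%, 9.6% and 14.2% down at the 4 times (without the block 0.527%, 2.15%, 4.26% and 6.61%, and 0.787%, 3.61%, 5.57% and 9.20%). The block also gave 2 MAX and MLX partners up at 1 h and 1 down at 2 and 6 h, 1 PRC1.6 gene up at 1 h, 2 germline genes up at 1 and 2 h, 1 and 3 MYC activated genes up at 0.5 and 1 h and 10 down at 2 h, 1 and 2 turnover genes up at 1 and 6 h, and 2 and 3 MYC repressed genes up at 0.5 and 6 h.

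With DESeq2, Mycn at 0.5 h (-0.649) and Max at 2 h (0.352) were called, Myc (-1.14) and Mycl (-1.33) at 2 h and Myc between 1 and 6 h (-1.43) were not, the joint adjusted p was 0.051 for Myc and 0.10 for Mycl, and 1 of the 6 genes was called at 0.5 h. It called 1 MYC activated gene up at 0.5 h, 0 cofactors down at 6 h, and 1 and 2 turnover genes up at 1 and 6 h (all TUs up 0.703%, 2.45% and 5.81% at 0.5, 1 and 6 h, down 6.04% at 6 h). With only the libraries compared, Mycn at 0.5 h (-0.64) and Max at 1 h (0.311) were called, Myc at 2 h (-1.15) was not, Mxd4 at 0.5 h was 0.00023 and Mycn from 1 to 2 h -0.0115, and 1 and 2 of the 6 were called at 0.5 and 1 h. That fit gave 1 and 0 PRC1.6 genes up at 1 and 2 h, 1 germline gene up at 1 h, 1, 5 and 0 MYC activated genes up at 0.5, 1 and 2 h and 1 down at 2 h, 1 cofactor up at 1 h, 3, 1 and 2 turnover genes up at 1, 2 and 6 h and 0 down at 2 h, and 1 MYC repressed gene up at 0.5 h, where 0.812%, 7.23%, 3.29% and 9.96% of all TUs were up and 0.978%, 5.05%, 4.92% and 11.7% down at the 4 times.

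With total counts, Mga was -0.0137 at 2 h and -0.00524 from 0.5 to 1 h, Mycn -0.0124 and Max -0.000503 from 1 to 2 h, and Myc -1.42 from 1 to 6 h, not called. Total counts gave 0 MAX and MLX partners up at 1 h, 0 PRC1.6 genes up and 4 down at 2 h, 1 germline gene up at 6 h, 1 MYC activated gene up at 0.5 h and 9 and 24 down at 2 and 6 h, 1 cofactor down at 2 h, 1 and 2 turnover genes up at 1 and 6 h and 0 MYC repressed genes up at 1, 2 and 6 h, where 0.443%, 1.62%, 2.93% and 5.12% of all TUs were up and 0.829%, 4.33%, 7.26% and 10.9% down at the 4 times. With no count filter, Mycn from 1 to 2 h was -0.0043 and Myc from 1 to 6 h (-1.42) was not called, with 0 and 9 MYC activated genes down at 1 and 6 h, 0 cofactors down at 6 h, and 1 and 2 turnover genes up at 1 and 6 h (all TUs up 1.61% and 4.80%, down 2.42% and 6.33%). With a mean of at least 50 fragments, Max at 2 h (0.29) was called, Mycn from 1 to 2 h was -0.00972, and 1 of the 6 was called at 6 h, with 1 MAX and MLX partner down at 6 h, 1 PRC1.6 gene up at 1 h, 6 MYC activated genes down at 2 h, 0 turnover genes up at 6 h and 0 MYC repressed genes up at 1 and 2 h (all TUs up 4.12%, 7.41% and 9.67%, down 4.65%, 7.59% and 11.8% at 1, 2 and 6 h). RLE factors gave 0 cofactors down at 6 h, 0 turnover genes down at 2 h and 2 MYC repressed genes up at 6 h (all TUs up 7.05% at 6 h, down 5.21% and 8.59% at 2 and 6 h).

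With each library left out in turn, log2 fold changes against NT ran from -0.843 to -0.451 for Mycn at 0.5 h, -1.33 to -1.02 for Myc and -1.57 to -1.10 for Mycl at 2 h, 0.264 to 0.363 for Max at 2 h, -0.122 to 0.137, -0.00948 to 0.482 and -0.083 to 1.01 for Mxd4 at 0.5, 2 and 6 h, and -0.0672 to 0.228 and -0.127 to 0.302 for Mga at 0.5 and 2 h. From 0.5 to 1 h they ran from -0.264 to 0.0018 for Myc, -0.369 to 0.238 for Mycl and -0.0796 to 0.197 for Mga. From 1 to 2 h they ran from -0.275 to 0.225 for Mycn, -0.0281 to 0.0491 for Max and -0.257 to 0.154 for Mga, from 2 to 6 h from -0.337 to 0.759 for Mxd4 and -0.369 to 0.042 for Mga, and from 1 to 6 h from -1.59 to -1.29 for Myc. The joint adjusted p ran from 0.0092 to 0.056 for Myc and 0.018 to 0.18 for Mycl, and 0 to 1 and 1 to 4 of the 6 genes were called at 0.5 and 2 h. Of MYC activated genes 2 to 19 were called down at 6 h, 1 to 5 at 2 h and 0 to 1 at 1 h, and 0 to 1, 0 to 2 and 0 to 1 up at 0.5, 1 and 2 h. Turnover genes called up were 0 to 1, 0 to 4 and 0 to 2 at 1, 2 and 6 h and down 0 to 1 at 2 h, cofactors down 0 to 2 at 6 h, and MYC repressed genes up 0 to 1 at 0.5, 1 and 2 h and 0 to 2 at 6 h. PRC1.6 genes called down were 0 to 1, 1 to 2 and 1 to 2 at 0.5, 1 and 2 h and up 0 to 1 at 1 and 2 h, germline genes up 0 to 1 and 1 to 2 at 2 and 6 h, and MAX and MLX partners up 0 to 1 and 1 to 2 at 1 and 6 h.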

Other observations

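Close to Mga, 13.2 kb before its TU on the same strand, lies an extragenic TU of chromosome 2 (119857731 to 119859265), noticed after its values were seen. It held 11 and 15 fragments in NT, 1 and 3 at 0.5 h, 1 and 2 at 1 h, 1 and 3 at 2 h and 0 and 1 at 6 h. Only the NT libraries held more than 10 fragments, so the TU passed the count filter through them alone. Lower values in the later groups were thus built into its choice and are no separate support for a fall. edgeR called it lower at 1, 2 and 6 h (adjusted p of 0.019, 0.016 and 0.0039) and not at 0.5 h (0.062). Mga itself was not called at any time.

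Another extragenic TU lies 6.32 kb before Max on the same strand (chromosome 12, 76968617 to 76969402). It held 15 and 17 fragments in NT, 17 and 9 at 0.5 h, 6 and 8 at 1 h, 8 and 10 at 2 h and 7 and 6 at 6 h. The log2 fold changes were -0.67, -1.41, -1.18 and -1.42 (edgeR, adjusted p of 0.68, 0.076, 0.087 and 0.041), so 6 h was the time called, with values at 1 and 2 h of like size. The calls of the TUs under Other observations were not checked in the other fits.

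The remaining called neighbours lie before Mga and were also named after their values were seen. On its strand, 80.7 kb away, a TU annotated as antisense at a start site (chromosome 2, 119787358 to 119791795) held 21 and 27 fragments in NT, 6 and 7 at 2 h and 5 and 9 at 6 h, with log2 fold changes of -1.06, -1.29, -2.23 and -1.90 at the 4 times (edgeR, adjusted p of 0.30, 0.082, 0.0045 and 0.0085). On the other strand, 27.7 kb away, an extragenic TU (119841694 to 119844805) held 14 and 12 fragments in NT and 4 and 4 at 2 h, with log2 fold changes of -0.71, -0.47, -2.03 and -0.92 (edgeR, adjusted p of 0.69, 0.61, 0.019 and 0.18).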
